A study of Homo sapiens with 6 samples.

Results

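APP, its paralogue APLP2 and the enzymes that cut them were examined nucleotide by nucleotide in reverse transcription (RT) stop profiles of U2OS cells, a human osteosarcoma line. The members were 8 genes chosen by name, namely APP, APLP2, the gamma-secretase subunits NCSTN, APH1A, APH1B, PSEN2 and PSENEN, and BACE1, out of 15365 genes in the files. Each had 1 RefSeq transcript. The study made 6 libraries, 1 per condition, so no difference between conditions has a replicate check. All intervals given here are 95% exact intervals of counting error only.

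In RT-stop profiling, poly(A)-selected mRNA is fragmented, ligated to an adapter and copied, and the cDNA end marks where RT halted. Untreated mRNA was reverse transcribed in 150 mM K+ in 1 library and in 150 mM Na+ in another by the labels, whereas the study's methods name Li+ in place of Na+. File names give the opposite salt to the labels for this pair, so each is called by its label throughout, as the library labelled Na+ and the library labelled K+. For the in vitro libraries mRNA was refolded and treated with dimethyl sulfate (DMS) in 150 mM K+ or in 150 mM Li+. For the in-cell libraries DMS was added at 8% for 5 min to unstressed cells or to cells starved for 2 h in Hank's balanced salt solution. The DMS libraries were all reverse transcribed in 150 mM K+.

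An RNA G-quadruplex (rG4) is a stack of guanine tetrads formed by runs of G and held together by a central cation. K+ fits between the tetrads and stabilises the fold, while Li+ does not. A folded rG4 halts RT at the G on its 3′ edge. DMS methylates the N7 of an exposed G, which keeps the rG4 from refolding before RT, and it also methylates A and C where they are not base-paired, which halts RT at those bases. APP is the membrane protein from which amyloid-beta is released. BACE1 makes the first of the amyloidogenic cuts, and gamma-secretase makes the cut within the membrane. Within gamma-secretase a presenilin such as PSEN2 carries the active site, NCSTN receives the substrate, APH1A or APH1B serves as scaffold, and PSENEN is needed for maturation of the presenilin. APLP2 is cut by the same enzymes.

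The 4 transcripts with enough stops held 6 groups of strong stops, which differed in sequence and in place. The 30 nt that end at the strongest G of each group are shown because they hold the G runs next to which RT halted, with runs of at least 2 G in capitals. All were read from GRCh37 and are written 5′ to 3′ on the strand of the gene.
APP 3′ UTR: taagcacttttacGGGGcGGGtGGGGaGGG
APH1A 3′ UTR, upstream: tttttcttttttgaGGtGGGGGGaGGGaGG
APH1A 3′ UTR, downstream: agtttttaattGGGGtgtGGGaGGGGcGGG
APLP2 coding, upstream: aGGatgatgaGGatgaGGaagaaGGGGaGG
APLP2 coding, downstream: aaGGatctGGagtGGGagagcaGGatGGGG
PSENEN 3′ UTR: tcccaGGacaGGctccttaaagcagaGGag
The APP sequence lies at chr21:27253245-27253274 on the minus strand, in the 3′ UTR, which is within exon 18 of 18. The APH1A sequences lie at chr1:150238239-150238268 and chr1:150237904-150237933 on the minus strand, both in the 3′ UTR within exon 7 of 7. The upstream APLP2 sequence lies at chr11:129992253-129992282 on the plus strand in coding exon 6 of 18. The downstream one joins chr11:130007184-130007186 of exon 14 to chr11:130010293-130010319 of exon 15, so it exists in the spliced mRNA only. The PSENEN sequence lies at chr19:36237782-36237811 on the plus strand, in the 3′ UTR within exon 4 of 4. The APP sequence and the downstream APH1A sequence hold 4 runs of at least 3 G. The others hold fewer such runs, and the PSENEN sequence holds 9 G, none in a run longer than GG.

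The strength of a stop was expressed as E, the number of stops at a nucleotide over the mean number per nucleotide of its transcript in the same library. A strong stop had an E of at least 10, on a transcript whose stops averaged 1 or more per nucleotide. By this rule 4 members could be assessed without DMS, APP with a mean of 7.12 and 6.58 stops per nucleotide in the libraries labelled Na+ and K+, APLP2 with 3.09 and 3.18, APH1A with 3.28 and 2.72, and PSENEN with 3.12 and 3.11. NCSTN (0.853 and 0.867), PSEN2 (0.281 and 0.309) and APH1B (0.221 and 0.223) fell below the minimum. BACE1 had 6 listed stops in the library labelled Na+ and 3 in the library labelled K+, which gives no profile. The assessed members held 17 strong stops at G. On APP, APLP2 and APH1A no other base held a strong stop without DMS.

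In total 14 of the 17 strong stops were at least 2-fold stronger in the library labelled Na+, against 65.6% of all 6983 strong stops at G in the files. None was at least 2-fold weaker, against 4.1% of all. The median log2 ratio was 4.29 over the 16 listed in both libraries and 1.07 over all strong stops listed in both. The 3 exceptions were those of PSENEN. The other 14 passed the limit of an E of 10 only in the library labelled Na+. Their higher value in that library thus follows in part from how they were chosen. Neighbouring G of a group are also not separate sites. Along the 4 transcripts the strong stops at G stood alone or in pairs of groups, with every other G below an E of 10 in both libraries. The weakest strong stop had an E of 10.3 (PSENEN, position 583), and the strongest G that missed the limit had an E of 9.72 (APLP2, position 2056, next to the downstream APLP2 group).

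**Figure D1:**
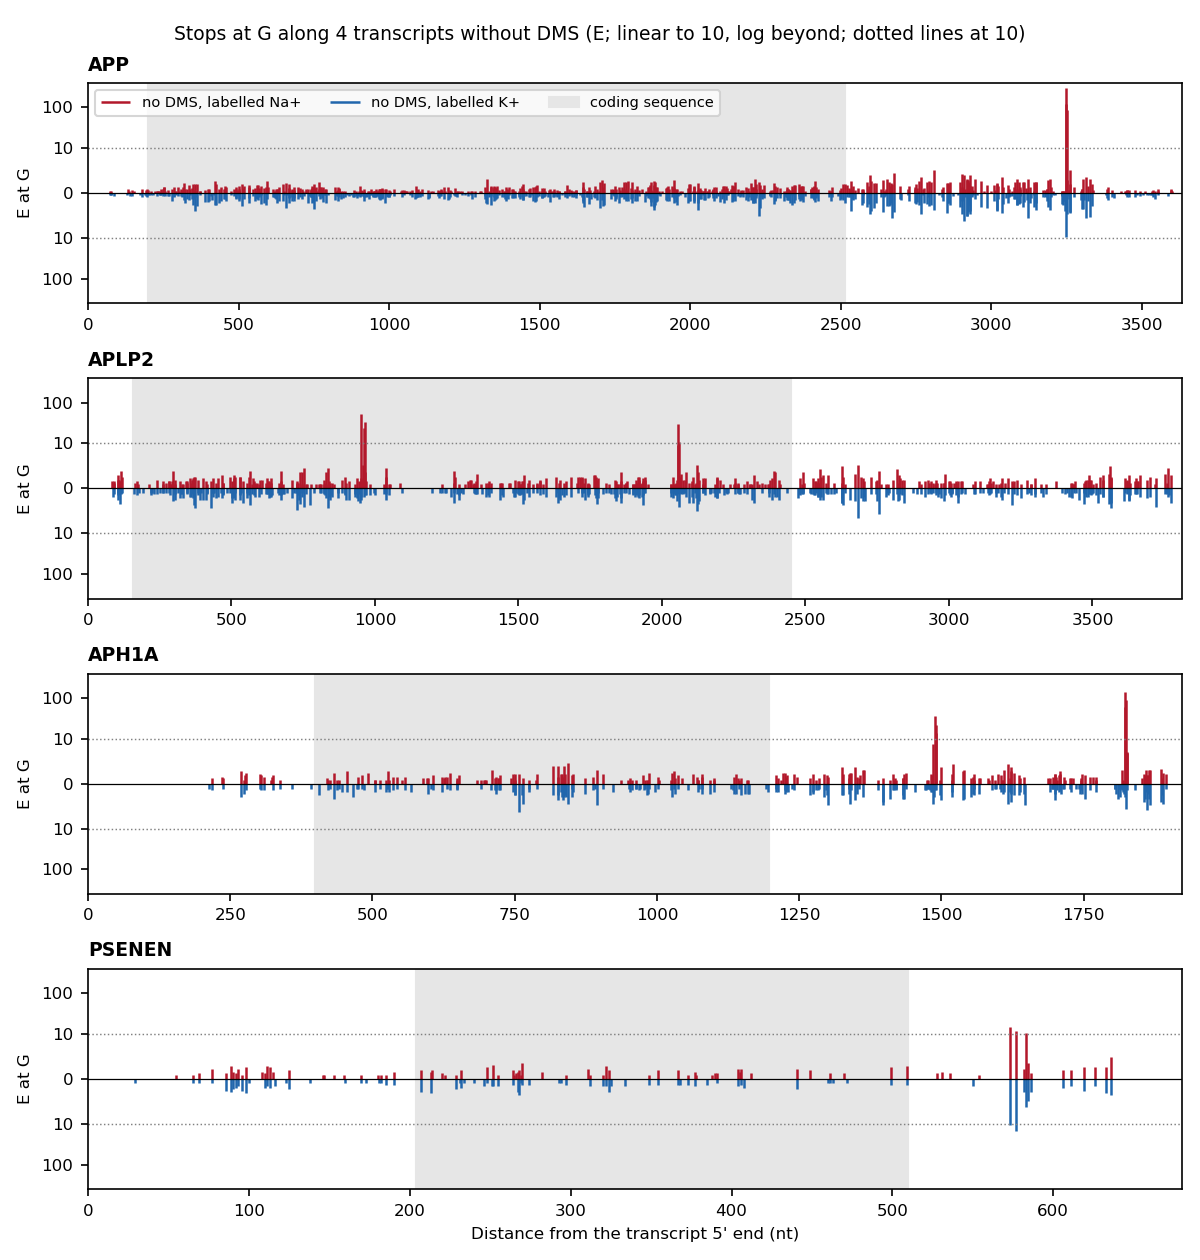
E at every listed G of APP, APLP2, APH1A and PSENEN against the distance from the 5′ end of the transcript, upward for the library labelled Na+ and downward for the library labelled K+. The axis is linear to 10 and logarithmic beyond, the dotted lines mark an E of 10 and the grey area is the coding sequence. APP, APH1A and APLP2 pass the limit upward only, whereas PSENEN passes it in both directions at the same place.

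APP held the strongest of these stops, on 3 neighbouring G. Position 3249, at the last base of the sequence shown, had 2194 stops in the library labelled Na+ and 64 in the library labelled K+. After DMS in vitro it had 199 (K+) and 76 (Li+), and after DMS in cells 21 (unstressed) and 123 (starved). Its E was 308 (296 to 321) in the library labelled Na+, the 30th highest of the 6983 strong stops, against 9.72 (7.49 to 12.4) in the library labelled K+. The G before it (position 3248) had 873, 10, 27, 26, 8 and 46 stops in the same order of libraries, and the G after it (position 3250) had 606, 31, 70, 42, 11 and 47. All 3 were high in the library labelled Na+ and, at a lower level, in starved cells, and positions 3249 and 3250 were also strong in vitro in K+, as was position 3249 in Li+. Summed over the 3 G, E was 32.4-fold (26.6 to 39.7) higher in the library labelled Na+ than in the library labelled K+. The 3 G held 14.2% of all stops on APP in the former and 0.439% in the latter.

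The stops beside the APP site differed on its 5′ side. RT reaches the 3′ side first, and in the 30 nt on this side the stops at all bases numbered 374 in the library labelled Na+ and 366 in the library labelled K+. On the 5′ side, beyond the site, they numbered 30 and 204. The ratio of 5′ to 3′ stops was thus 0.144 times (0.0923 to 0.219) that of the library labelled K+. The downstream APH1A site showed the same difference, with 13 stops 5′ and 124 stops 3′ of it in the library labelled Na+ against 84 and 85, a ratio of ratios of 0.106 (0.0513 to 0.208). At the upstream APLP2 site it was 0.296 (0.161 to 0.542). It was near 1 at the upstream APH1A site (0.874, 0.586 to 1.30), at the downstream APLP2 site (0.990, 0.671 to 1.46) and at PSENEN (0.947, 0.461 to 1.93).

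APH1A, the scaffold subunit, held 2 groups of strong stops in its 3′ UTR. The downstream group was the stronger. Its position 1823 had 468 stops in the library labelled Na+ and 8 in that labelled K+. It had 27 (K+) and 14 (Li+) in vitro, and it was not listed in unstressed cells and had 19 stops in starved ones. Its E in the library labelled Na+ was 143 (130 to 156). The neighbouring positions 1822 and 1824 had 198 and 293 stops in the library labelled Na+ and 3 and 15 in the library labelled K+. The group was 30.6-fold (20.7 to 47.0) stronger in the library labelled Na+ and held 15.2% of the stops on APH1A there, a share like that of the APP site on APP. The upstream group had 117, 44 and 70 stops in the library labelled Na+ at positions 1488, 1490 and 1491, and 4, 4 and fewer than 3 in the library labelled K+. Summed, it was 23.9-fold (11.9 to 56.1) stronger in the library labelled Na+, with an interval that overlaps that of the downstream group.

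In APLP2 the strong stops lay in the coding sequence. The upstream group had 163, 72 and 102 stops in the library labelled Na+ at positions 953, 962 and 965, and 6, 6 and 5 in the library labelled K+, a 20.5-fold (12.6 to 35.5) difference. The downstream group had 93 and 33 stops at positions 2057 and 2058 against 3 and 13, an 8.12-fold (4.81 to 14.6) difference. Position 2058 differed least of the stops on APP, APLP2 and APH1A, by 2.62-fold (1.34 to 5.42).

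**Figure D2:**
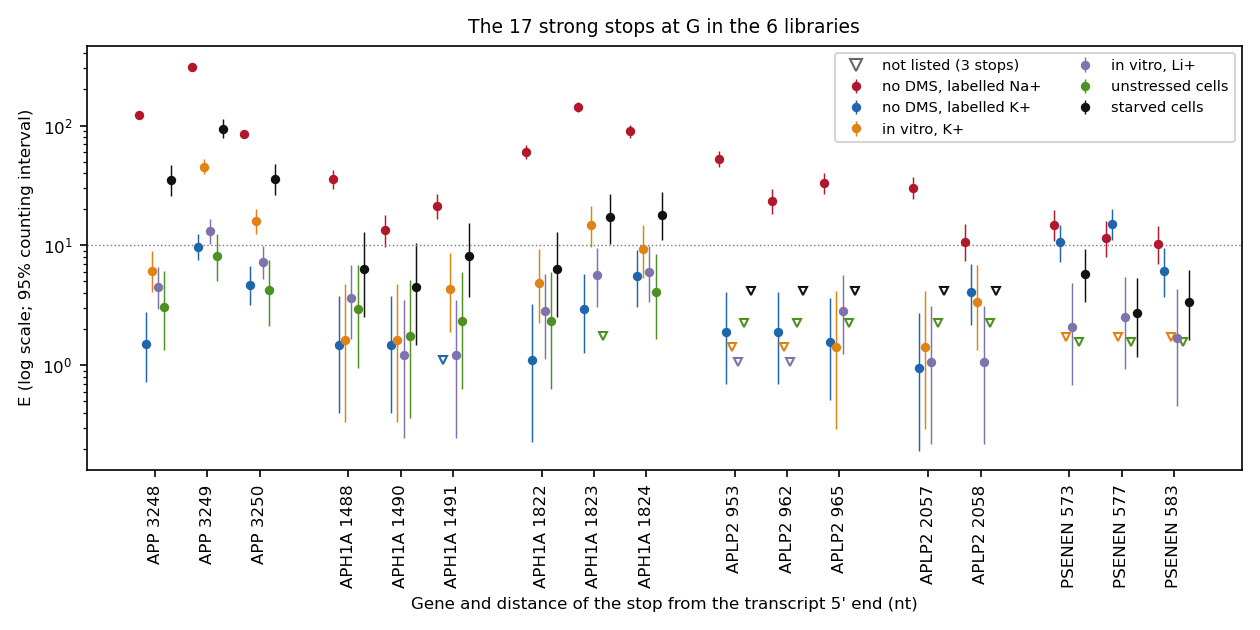
E of each of the 17 strong stops at G in the 6 libraries, on a logarithmic axis, with 95% counting intervals. Open triangles stand at the E that 3 stops would give where a position is not listed, the dotted line marks an E of 10, and APP and APH1A show the library labelled Na+ highest and starved cells above unstressed cells.

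PSENEN differed from the other members. Its 3 strong stops at G had similar counts in both libraries without DMS, 46 and 33 at position 573, 36 and 47 at position 577, and 32 and 19 at position 583. Summed, the ratio of the library labelled Na+ to that labelled K+ was 1.15 (0.869 to 1.52). Between them lay strong stops at other bases, with 94 and 103 stops at C 574, 68 and 68 at C 575, and 53 and 59 at T 576. No match to 4 runs of at least 2 G with 1 to 9 nt between them was found in the transcript. The stops lie in an inverted repeat of the 3′ UTR whose arms are shown because they pair over their full length of 18 nt.
PSENEN repeat, 5′ arm: ctcccaggacaggctcct
PSENEN repeat, 3′ arm: aggagcctgtcctgggag
The 5′ arm lies at chr19:36237781-36237798 and the 3′ arm at chr19:36237807-36237824 (GRCh37, plus strand), 8 nt apart. All of these strong stops fall in the 3′ arm, the first arm that RT reaches. After refolding in K+ none of the 3 G was listed, while Li+ gave 5, 6 and 4 stops. In unstressed cells none was listed, and in starved cells they had 17, 8 and 10. The neighbouring C 574 and C 575 had 4 and 7 stops in the K+ and 7 and 9 in the Li+ library in vitro, and 8 and 3 (unstressed) and 20 and 18 (starved) in cells.

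In vitro, 15 strong stops had a value. K+ gave an E at least 2-fold above that in Li+ at 5 of them (22.7% of all 5305) and at least 2-fold below it at 4 (20.7% of all). Of these 4, 3 are the PSENEN stops that were not listed in K+, and with 3 stops taken there their ratios were 0.815, 0.679 and 1.02. The median log2 ratio over the 12 members' stops listed in both was 0.71, against 0.24 over all strong stops. The APP site was 2.71-fold (2.22 to 3.34) stronger in K+. This was 3.46-fold (2.64 to 4.57) at position 3249 and 2.20-fold (1.48 to 3.31) at position 3250, while position 3248 differed by 1.37-fold (0.770 to 2.45). The downstream APH1A site was 1.99-fold (1.28 to 3.13) stronger in K+. The upstream APH1A site had 14 stops in K+ and 15 in Li+, a ratio of E of 1.26 (0.565 to 2.81), and no difference was detectable at this depth. The same held for the APLP2 groups, with 3 stops against 8 (ratio 0.501, 0.0856 to 2.09) and 10 against 6 (2.23, 0.733 to 7.46). On the 5′ and 3′ sides of the APP site there were 6 and 117 stops in K+ against 67 and 107 in Li+, a ratio of ratios of 0.0819 (0.0281 to 0.200).

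In cells, all 12 strong stops with a value were at least 2-fold stronger after starvation, and none was weaker. Of these, 4 were not listed in unstressed cells, and with 3 stops taken there PSENEN position 577 was only at least 1.73-fold stronger. For 4 others, APH1A positions 1488, 1490, 1491 and 1822, the counting interval of the ratio holds 1. Of all 4072 strong stops with a value, 62.6% were stronger and 10.2% weaker, so a higher E in starved cells was common. The median log2 ratio was 1.97 over the 8 members' stops listed in both libraries and 0.89 over all strong stops listed in both. The ratio of APP position 3249 was as high as or higher than that of 60.1% of all strong stops. The count depends on the scale. On counts per library size (CPM) 7 of the 12 were at least 2-fold higher (55.4% of all), and with E taken over U and G nucleotides only, 9 were (50.1% of all).

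At the APP site the 3 G had 40 stops in unstressed cells and 216 in starved cells. Their summed E was 10.7-fold (7.62 to 15.4) higher in starved cells, and they made up 0.425% of the stops on APP in unstressed cells and 4.56% in starved cells. The ratio was 5.84 (4.15 to 8.41) with E over U and G only, 5.34 (3.80 to 7.69) with the deposited ratio and 3.27 (2.32 to 4.70) on CPM. The E of position 3249 in starved cells, 94.3 (78.4 to 112), was above that of the in vitro library in K+, 45.5 (39.4 to 52.3), whereas the interval in unstressed cells, 8.11 (5.02 to 12.4), overlapped that of the in vitro library in Li+, 13.2 (10.4 to 16.5). The ratio of starved cells to the in vitro library in K+ was 2.07 (1.64 to 2.61) by E but 1.18 (0.934 to 1.48) relative to the listed stops of the 3′ UTR, so this difference depends on the reference. Besides these 3 G, 1 more G of APP was strong in starved cells, at position 3141 of the 3′ UTR with 14 stops and an E of 10.7.

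At the downstream APH1A site the 3 G had 11 stops in unstressed cells and 46 in starved cells, a ratio of E of 6.45 (3.29 to 13.8), or 2.53 (1.29 to 5.41) on CPM. At the upstream APH1A site they had 12 and 21 stops, a ratio of E of 2.70 (1.27 to 6.01). On CPM this ratio was 1.06 (0.497 to 2.36). None of the 5 strong stops of APLP2 was listed in either in-cell library. On APLP2 3 stops corresponded to an E of 2.26 (unstressed) and 4.16 (starved), and the coding sequence around these stops was hardly covered in cells. The PSENEN stops were not listed in unstressed cells and summed to 35 in starved cells. For position 573 this was at least a 3.67-fold higher E, with 3 stops taken as the limit of listing.

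**Figure D3:**
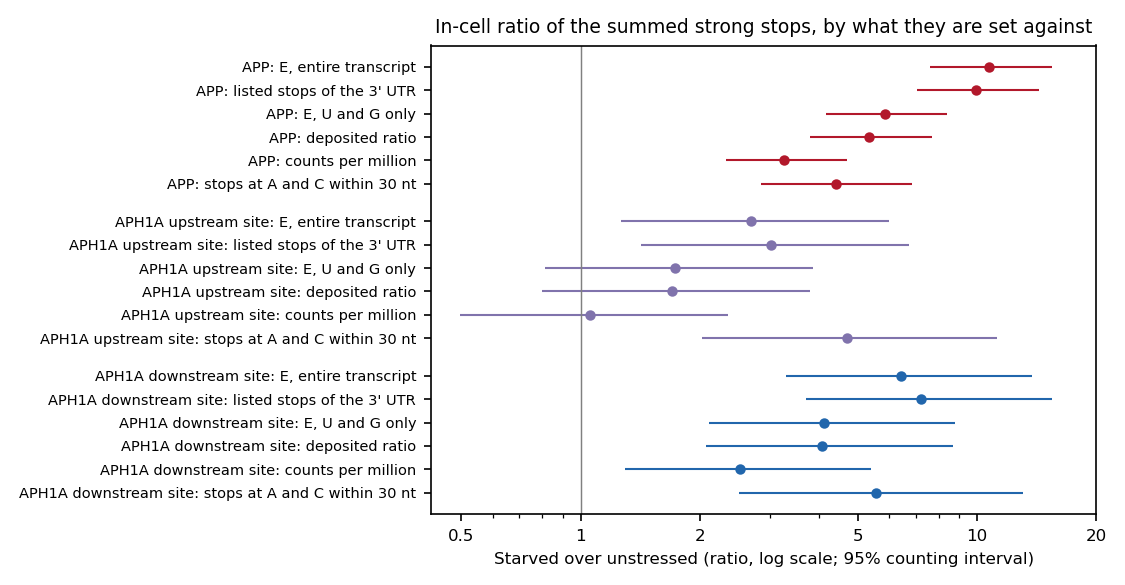
Ratio of starved to unstressed cells for the summed strong stops of the APP site and the APH1A sites, on a logarithmic axis, with 95% counting intervals. Each row sets the stops against another measure, and all APP and downstream APH1A intervals lie above 1, whereas those of the upstream APH1A site reach below 1 for U and G only, for the deposited ratio and for CPM.

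The folding score sets the E in cells on a scale from the E in vitro in Li+ (score 0) to that in K+ (score 1). It could be calculated for the 5 members' stops that were listed in both in vitro libraries and at least 2-fold stronger in K+. APP position 3249 scored -0.16 (unstressed) and 2.51 (starved), and position 3250 scored -0.35 and 3.29. APH1A position 1823, not listed in unstressed cells, scored -0.62 and 1.27, and position 1491 scored 0.36 and 2.20 from 4 and 9 stops. Relative to the listed stops of the 3′ UTR the starved scores were lower, 1.26 and 1.54 for the APP positions and 0.98 for APH1A position 1823. The latter was 0.88 with E over U and G only and 0.83 with the deposited ratio. For APH1A position 1491 the scale itself rests on 8 against 3 stops in vitro, a ratio of 3.61 (0.866 to 21.1) whose interval holds 1. APLP2 position 2058, listed in neither in-cell library, scored -0.47 in both, and 0.19 and 0.75 with 2 stops counted there. Its scale rests on 7 against 3 stops in vitro, a ratio of 3.12 (0.712 to 18.7).

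DMS also halts RT at A and C, and these stops give a second measure near each site. Within 30 nt 3′ of the APP site the stops at A and C numbered 133 (labelled Na+) and 124 (labelled K+) without DMS, 89 (K+) and 86 (Li+) in vitro, and 70 (unstressed) and 121 (starved) in cells. Relative to the transcript mean they were 3.43-fold (2.54 to 4.68) higher in starved than in unstressed cells. Within 30 nt 5′ of the site they numbered 9, 49, 6, 26, 44 and 19 in the same order, and the in-cell ratio was 0.857 (0.473 to 1.50). The G of the APP site were thus 4.40-fold (2.84 to 6.86) higher in starved cells relative to the A and C of both sides, and 8.55-fold (5.91 to 12.6) relative to those within 60 nt. The single A between the G runs, position 3246, had 12 (unstressed) and 8 (starved) stops, an E of 4.63 and 6.13. The C between the first 2 runs, position 3237, had 11 and 5, an E of 4.25 and 3.83.

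Relative to A and C on both sides, the upstream APH1A site was 4.70-fold (2.02 to 11.2) and the downstream site 5.58-fold (2.51 to 13.0) higher in starved cells. With the window narrowed to 15 nt the downstream value was 2.09 (0.786 to 5.67). Around the upstream site the A and C themselves had an in-cell ratio of 0.574 (0.408 to 0.797) relative to the transcript mean. Around the PSENEN stops they had a ratio of 1.80 (1.42 to 2.30). Around the upstream APLP2 site 3 stops at A and C were listed in unstressed cells and none in starved cells, so the region was hardly covered in cells.

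**Figure D4:**
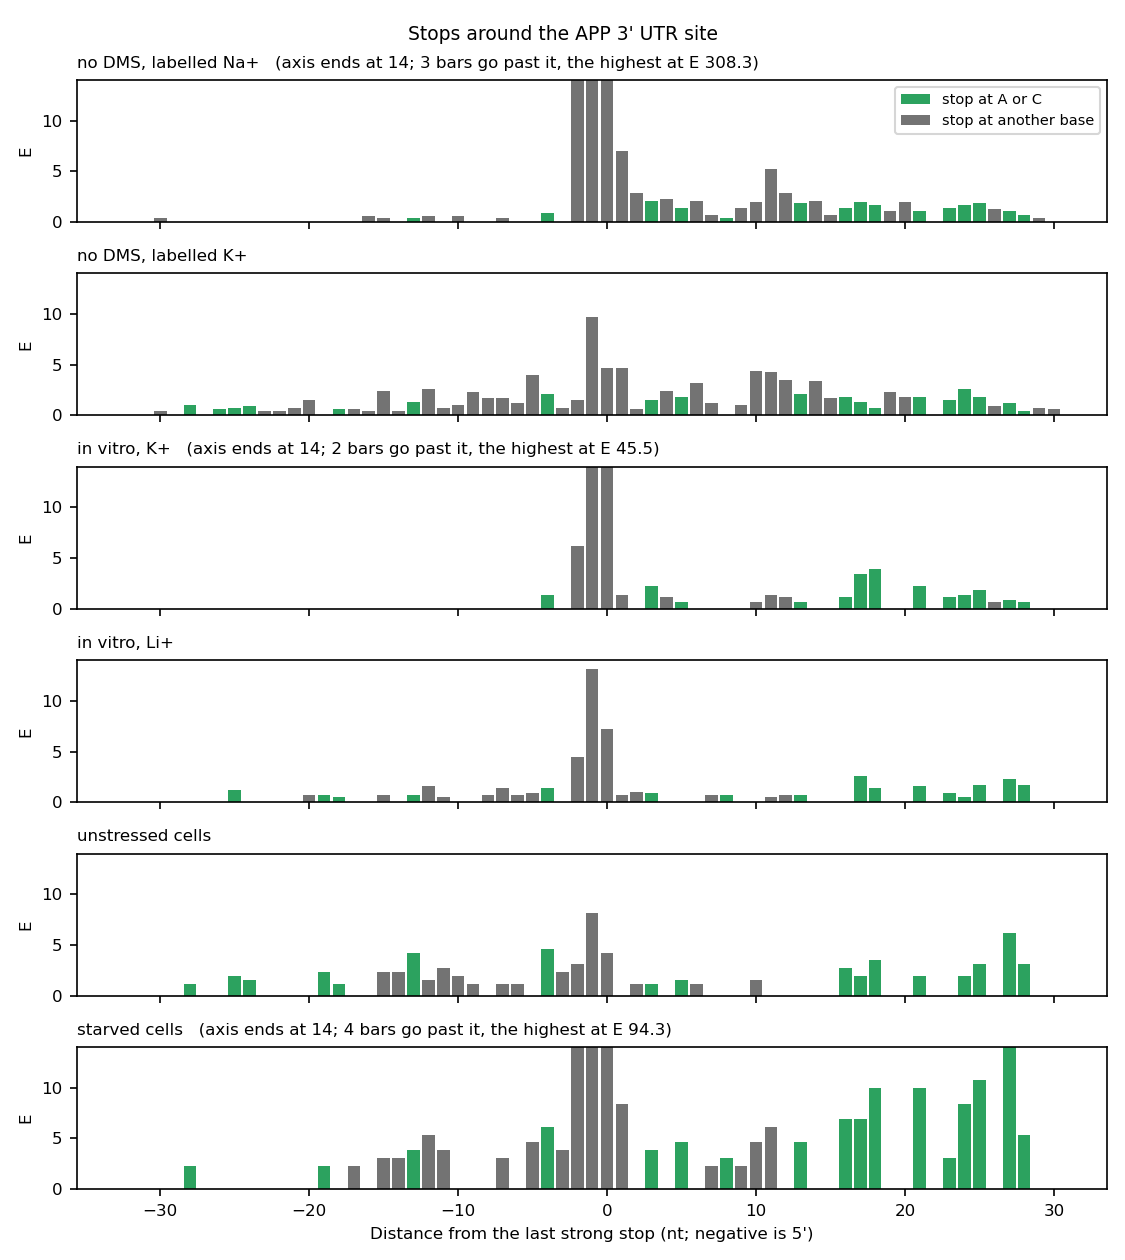
E at each nucleotide from 30 nt before to 30 nt after the APP site in the 6 libraries, with stops at A or C in green and at other bases in grey, and axes that end at 14. The site stands out in the library labelled Na+, in starved cells and in vitro in K+ and, at an E of 13.2, in Li+, with few stops on its 5′ side in the library labelled Na+ and in vitro in K+, and in starved cells A and C on its 3′ side are higher than in unstressed cells.

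The share of stops at A or C over the entire transcript shows how much of each profile DMS made. For APP it was 42.4% (labelled Na+) and 48.6% (labelled K+) without DMS, 75.2% (K+) and 75.7% (Li+) in vitro, and 83.6% (unstressed) and 70.0% (starved) in cells. The medians over 1353 transcripts measured in all libraries were 50.3%, 50.8%, 77.1%, 76.9%, 83.4% and 73.6%. In starved cells it was 72.3% for APLP2, 59.6% (57.3 to 61.8) for APH1A and 66.0% (63.8 to 68.1) for PSENEN, against 79.8%, 74.1% and 78.2% in unstressed cells. The share was thus lower in starved cells for all 4 assessed members, as it was for the median transcript. With E taken over U and G only, which leaves out the A and C stops, the in-cell ratio was 5.84 (4.15 to 8.41) for the APP site, 4.12 (2.10 to 8.82) for the downstream and 1.72 (0.811 to 3.85) for the upstream APH1A site. APH1A had the lowest share of the 4 in every library, and without DMS its stops at G made up 43.2% and 30.4% of all in the libraries labelled Na+ and K+.

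The in-cell profiles of APP, APLP2, APH1A and NCSTN held more of their stops in the 3′ UTR than those of the other libraries. On APP the 3′ UTR held 53.9% (labelled Na+) and 47.4% (labelled K+) of the listed stops without DMS and 44.9% (K+) and 41.4% (Li+) in vitro. It held 78.0% (77.1 to 78.9) in unstressed cells and 95.0% (94.3 to 95.7) in starved cells. The median over 1328 mRNAs was between 35.7% and 37.2% in the libraries not treated in cells, 51.5% in unstressed and 50.7% in starved cells. APLP2 reached 78.9% and 87.2% in unstressed and starved cells, APH1A 71.0% and 80.0%, and NCSTN 76.4% and 90.6%. PSENEN, with the shortest transcript (680 nt), had 27.6% and 37.6%, against 43.8% (labelled Na+) and 42.8% (labelled K+) without DMS and 31.0% (K+) and 28.6% (Li+) in vitro. A nucleotide is listed from 3 stops, so these shares move with depth. Set against the listed stops of the 3′ UTR alone, the in-cell ratio of the APP site was 9.94 (7.07 to 14.3), that of the upstream APH1A site 3.03 (1.42 to 6.75) and that of the downstream one 7.24 (3.69 to 15.5).

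The share of all stops of a library that fell on a transcript, in parts per 1e6 (ppm), was lowest in starved cells for APP, APLP2, NCSTN and APH1A. APP took 585 (labelled Na+) and 518 ppm (labelled K+) without DMS, 534 (K+) and 518 ppm (Li+) in vitro, 524 (514 to 535) in unstressed cells and 160 (155 to 164) in starved cells. APLP2 took 266, 263, 268, 263, 281 and 92.6 in the same order. NCSTN took 56.6, 55.0, 62.4, 60.0, 73.1 and 14.4, and APH1A 143, 113, 119, 118, 183 and 71.7. For APLP2, NCSTN and APH1A the share in unstressed cells was thus itself above that in every library not treated in cells. On APLP2 its interval overlapped that of the in vitro library in K+. The starved to unstressed ratios of APP and APLP2, 0.305 (0.294 to 0.315) and 0.329 (0.314 to 0.345), were similar. The ratio was 0.197 (0.176 to 0.220) for NCSTN and 0.392 (0.371 to 0.415) for APH1A. From listed stops alone it was 0.0601 (0.0457 to 0.0780) for NCSTN, which had 64 of them in starved cells, and 0.213 (0.200 to 0.226) for APLP2. Fewer cells with an mRNA and less of it per cell cannot be told apart in these libraries. The 4 members with a lower share are also those with more in-cell stops in the 3′ UTR. The coding sequence of APP held 21.9% (unstressed) and 4.98% (starved) of its listed stops, and the part of this in the share was not tested. Of the 6 members with at least 100 listed stops over both in-cell libraries together, these 4 were at least 1.5-fold lower, against 39.1% of 8572 transcripts tested, and none was at least 1.5-fold higher (26.8% of all). PSENEN took 48.0, 45.7, 40.1, 40.0, 72.2 and 67.4 ppm in the same order, so that both in-cell libraries were above the others. Its ratio was 0.934 (0.871 to 1.00), and APH1B had 0.878 (0.761 to 1.01). For APH1B the listed stops alone, 26 and 88, gave 1.83 (1.17 to 2.96), and in cells they were at A and C only, so no direction is given for it. PSEN2, with 31 and 10 listed stops that were not at the same bases, was too shallow for a ratio.

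**Figure D5:**
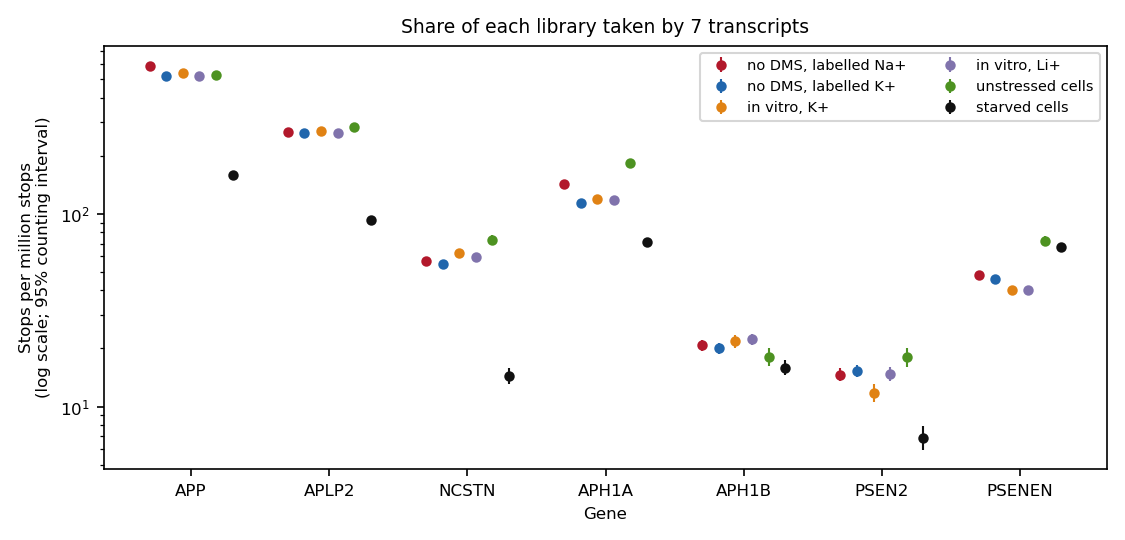
Share of all stops of the library (ppm) on 7 members, on a logarithmic axis, with 95% counting intervals, in the 6 libraries. APP, APLP2, NCSTN and APH1A are lowest in starved cells, PSENEN differs little between the in-cell libraries, and the points of APH1B and PSEN2 rest on few listed stops.

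The paralogues were then compared for their G runs. The motif searched was 4 runs of at least 3 G with 1 to 7 nt between them, on the transcribed strand, and a weaker form of 4 runs of at least 2 G with 1 to 9 nt between them. Of all 742941 windows of 45 nt that end at a listed G, 0.461% held the former and 11.3% the latter. APP held 1 of the former, at positions 3233 to 3250 of its 3′ UTR, which ends at the last strong stop, and APLP2 held none. The 3′ UTR of APLP2 is longer, 1363 nt against 1120 nt, and held 2 of the weaker form, as did that of APP. Without DMS, the strongest stop at G in the 3′ UTR of APLP2 was at position 2683, with 16 and 21 stops in the libraries labelled Na+ and K+ and an E of 5.18 and 6.60. In the coding sequences APP held 9 of the weaker form and APLP2 10, and strong stops lay at none of the former and 2 of the latter. The strongest stop at G in the coding sequence of APP reached 3.23 in E under the label Na+ and, at another position, 5.16 under the label K+. The single APP site and the APLP2 sites were thus in different parts of the mRNA.

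APH1A held 2 of the stronger motif in its 3′ UTR, of which 1 had the downstream strong stops. The other, at positions 1198 to 1228, began at the first nucleotide of the 3′ UTR and had at most 8 stops at a G in the library labelled Na+ (E of 2.44), 6 in that labelled K+, 11 in unstressed and 4 in starved cells. A motif of 4 runs of at least 3 G was therefore not always marked by a strong stop. The 3′ UTR of APH1B is longer, 3308 nt against 726 nt, and held none of the stronger and 5 of the weaker form. No position of the weaker motifs of APH1B was listed at G in the library labelled Na+. Only 36 of its 4156 nt were listed there, so stops at these motifs could not be assessed.

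For the members below the transcript minimum only the counts are given, and the G with at least 10 stops were looked up after the values were seen. NCSTN position 2796 of the 3′ UTR, exon 17 of 17, had 41 stops in the library labelled Na+ and fewer than 3 in each of the others, which is at least a 13.9-fold higher E than in the library labelled K+. The G after it, position 2797, had 24 stops in the library labelled Na+ and fewer than 3 in each of the others, at least 8.14-fold higher. APH1B position 2290 of the 3′ UTR, exon 6 of 6, had 15 stops there and fewer than 3 in each of the others, at least 5.06-fold higher. PSEN2 had no such G, and its highest stop at G without DMS was 7 stops in the coding sequence. The 30 nt that end at NCSTN position 2796 and at APH1B position 2290 are shown for comparison with the APP and APH1A sites.
NCSTN 3′ UTR: GGcacattaGGGtGGGcgtgctgcGGGtGG
APH1B 3′ UTR: GGatGGGcGGGtttgacagattgtGGtGGG
They lie at chr1:160328574-160328603 and chr15:63599393-63599422 (GRCh37, plus strand). As these G were found by their stops in the library labelled Na+, the difference between the libraries is a description and adds nothing to that at the APP and APH1A sites. The strong stops of APP and APH1A also passed the limit in the library labelled Na+ only, so their difference likewise follows in part from the selection.

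A list of 31 other genes of APP processing and trafficking was examined in the same way. Of these, 13 passed the transcript minimum and 7 had a strong stop at G, 36 stops in all, of which 17 were at least 2-fold stronger in the library labelled Na+ (65.6% of all strong stops) and 3 in the library labelled K+ (4.1% of all). TMED10, a cargo receptor of the early secretory pathway that was singled out after its values were seen, held 18 of these stops, with 3 stronger in the library labelled Na+ and 2 in that labelled K+. Without it 14 of 18 were stronger in the library labelled Na+ and 1 in that labelled K+. The strongest were in the 3′ UTRs of NOTCH2, a gamma-secretase substrate (381 against 10 stops, E of 338 in the library labelled Na+), ITM2C, a binding partner of APP (130 against 4, E of 55.8), and BSG, a membrane glycoprotein (298 against 255, E of 55.2). The BSG stop, like PSENEN positions 573 and 577, was strong in both. Of the 26 genes tested for their share, 18 were at least 1.5-fold lower in starved cells (39.1% of all transcripts) and none was at least 1.5-fold higher (26.8% of all), with a median ratio of 0.594.

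Over the entire files, 12999691 (unstressed cells) to 35371061 (labelled K+) stops were listed per library. On APP, APLP2, APH1A and NCSTN, however, the fewest stops were listed in starved cells, with 3575 on APP against 8020 in unstressed cells and 14444 to 24786 in the libraries not treated in cells. The cell line was checked by markers without DMS. VIM took 2648 and 2684 ppm in the libraries labelled Na+ and K+, and the bone matrix genes SPARC and COL1A1 took 550 to 619 ppm. Of 8 osteoblast markers 4 were measured, with RUNX2 at 32.7 and 31.5 ppm, while SPP1, COL1A2, IBSP and BGLAP had no transcript in either library. Of the epithelial markers, EPCAM took 10.3 and 10.1 ppm and CDH1 took 0.0905 and 0.152 ppm, and KRT19 had no transcript in either library. ALPL was at or near 0, and the blood marker PTPRC took 0.0905 and 0.108 ppm.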

How the data were processed

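RT-stop profiling of poly(A)+ RNA from U2OS cells gave 6 libraries, 1 per condition, grouped by their labels. The authors removed duplicate reads, mapped the rest to an hg19 transcriptome with Bowtie without mismatches, and deposited the count of stops of every nucleotide that had 3 or more, beside the ratio of this count to a mean. That mean is taken over one base (A, C, G or T) of a transcript, as checked on 100% of entries. The mean over the entire transcript was rebuilt by weighting these means with the sequence of the matching GENCODE release 44 transcript on GRCh37. It also holds stops at positions not listed, with 4740 stops estimated on APP in starved cells against 3575 listed. A base with no listed position on a transcript was counted as 0 in this mean. The count of a single position not listed was taken as 0. A match was found for 10356 of the 11031 transcripts on which 15 or more bases were listed.

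Ratios have exact conditional binomial intervals and shares exact binomial ones. No test was made, since there was 1 library per condition. The members, the list of other genes and the limits were chosen with earlier results of these data known. Named were the 8 members, all strong stops at G on them, and the 3 other genes with the strongest stop. The G of NCSTN and APH1B were named after their values were seen. The calculations were tested on simulated counts. Values were computed in Python (3.11.15) using pandas (2.3.3), scipy (1.17.1) and numpy (2.4.6), and drawn using matplotlib (3.10.9). Alternatives were other limits, scales, windows and loop lengths, and the 3′ UTR as reference for ratios and folding scores was added after seeing the data.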

Additional observations from a re-analysis of the deposited data

How the results depend on the processing

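With 1 library per condition no replicate could be left out. No paired analysis was possible because the groups hold 1 library each and share no replicate. With the salt labels of the pair without DMS exchanged, the median log2 ratio of K+ over Na+ turned from -4.29 to 4.29, so every direction named by salt without DMS depends on the labels. An E of at least 5 gave 37 strong stops in place of 17. On CPM 7 stops were at least 2-fold higher in starved cells in place of 12, and none was at least 2-fold lower on any of the scales run. Relative to A and C within 60 nt the in-cell ratio of the APP site was 8.55, and relative to those within 15 nt that of the downstream APH1A site 2.09. With positions not listed counted as 2, the folding scores of APLP2 position 2058 turned from -0.47 in both in-cell libraries to 0.19 in unstressed and 0.75 in starved cells. The cause of these differences was not tested. Another 32 comparisons of main values with an alternative kept their value within 1.5 times or within the counting interval. Among those of single sites, transcripts and folding scores, where a score counted as kept if it moved by less than 0.5, 79 did so. Another 22 moved, including the in-cell ratio of the APP site, the starved folding scores of APP and the share of NCSTN. A further 3 changed sign, namely the median with exchanged labels and both scores of APLP2 position 2058. Unstressed cells limit the in-cell ratios, since APP position 3249 was the only member stop with more than 11 counts there.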
